A study of Rattus norvegicus with 16 samples.

Results

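The genes described here are 10 genes of heat production in fat: Ucp1, Cox8b, Cidea, Otop1, Pank1, Dio2, Ucp3, Ppargc1a, Ppargc1b and Adrb3. They were chosen by name, and with earlier results of these arrays known, as Ucp1 and genes of the brown fat programme around it. They were read from 11 probes of the 30367 on the array, those whose RefSeq accession maps to 1 of the 10 symbols, out of 15168 named genes. Cidea had 2 probes and the other 9 genes 1 each, and all 11 probes passed the filter on dim probes, which kept 21808.

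The samples are epididymal white adipose tissue, the visceral fat pad beside the epididymis, from male rat pups killed at 30 days of age in the fed state. HFT pups (n = 8) came from dams that took 25 mg per kg of a grape seed procyanidin extract (GSPE) in low-fat condensed milk, and HF pups (n = 8) from dams that took the milk alone. All dams, HFT and HF, ate a high-fat diet through pregnancy and lactation, and the pups ate that diet too. There was no group on another diet, so a difference between HFT and HF is one between extract and vehicle on a high-fat background. Each animal had its own 1-colour Agilent array, and the labels do not say which pups shared a dam, so that p-values measure the spread between these animals and treat any littermates as independent.

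Brown and beige fat cells burn fatty acids to make heat. Noradrenaline from sympathetic nerves acts on the beta-3 adrenergic receptor (Adrb3), cyclic AMP rises, lipolysis starts and transcription of Ucp1 is induced with the help of the coactivators PGC-1alpha (Ppargc1a) and PGC-1beta (Ppargc1b). UCP1 lets protons back through the inner mitochondrial membrane without making ATP, and type 2 deiodinase (Dio2) makes the active thyroid hormone that strengthens the response. Epididymal fat is the classic white depot of rodents, in which such cells are usually few.

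A level is given as log2 of a probe's signal minus the log2 of the 75th percentile of that array, so that 0 is the signal at the 75th percentile and each unit is a doubling. Levels of different probes are not set against each other, since probes differ in how strongly they bind. Where a tissue is measured whole, fewer cells of a type and less RNA per cell cannot be told apart.

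Ucp1 and the 3 members whose levels followed it most closely are shown here with the 250 bases before their transcription start, because these are the members that moved together. Ppargc1a is shown beside them as a member with a low correlation with Ucp1. The sequences are those of RefSeq on rat build GRCr8, read 5′ to 3′ on the strand of the gene, and 9 of the 10 members were matched. Capitals mark matches to 5 short motifs, searched on both strands: AGGTCA is the half-site of nuclear receptors such as PPARs and thyroid hormone receptors, TGACG the core of the cyclic AMP response element, TATAAA the TATA box, CCAAT the binding site of NF-Y and GGGCGG that of Sp1.
Ucp1: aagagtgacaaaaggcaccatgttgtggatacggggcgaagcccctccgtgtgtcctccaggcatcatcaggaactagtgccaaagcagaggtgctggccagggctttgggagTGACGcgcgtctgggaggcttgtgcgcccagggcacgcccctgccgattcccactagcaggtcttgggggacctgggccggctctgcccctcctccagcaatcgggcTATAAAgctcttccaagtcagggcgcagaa
Cox8b: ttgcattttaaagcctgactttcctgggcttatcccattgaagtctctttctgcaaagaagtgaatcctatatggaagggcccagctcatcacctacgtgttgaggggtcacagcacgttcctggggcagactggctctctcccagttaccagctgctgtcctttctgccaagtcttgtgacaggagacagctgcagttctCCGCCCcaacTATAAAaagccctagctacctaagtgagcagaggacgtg
Cidea: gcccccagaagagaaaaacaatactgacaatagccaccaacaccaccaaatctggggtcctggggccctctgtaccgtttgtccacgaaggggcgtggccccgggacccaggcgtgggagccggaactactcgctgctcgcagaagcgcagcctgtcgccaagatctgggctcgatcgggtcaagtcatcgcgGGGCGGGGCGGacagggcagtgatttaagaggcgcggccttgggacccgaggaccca
Otop1: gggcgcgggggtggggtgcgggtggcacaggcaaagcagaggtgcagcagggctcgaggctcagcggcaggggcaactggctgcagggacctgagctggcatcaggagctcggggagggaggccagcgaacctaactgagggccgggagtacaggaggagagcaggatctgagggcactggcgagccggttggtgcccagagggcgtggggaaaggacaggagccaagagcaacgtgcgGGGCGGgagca
Ppargc1a: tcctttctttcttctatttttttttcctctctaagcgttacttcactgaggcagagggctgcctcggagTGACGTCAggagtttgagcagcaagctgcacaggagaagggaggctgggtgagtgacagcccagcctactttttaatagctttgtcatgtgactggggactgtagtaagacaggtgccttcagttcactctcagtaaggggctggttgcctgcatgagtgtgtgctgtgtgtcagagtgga

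These windows lie at chr19:41721422-41721671 on the minus strand for Ucp1, at chr1:205408274-205408523 on the minus strand for Cox8b and at chr18:63164567-63164816 on the plus strand for Cidea. That of Otop1 is at chr14:76744786-76745035 on the minus strand and that of Ppargc1a at chr14:63634058-63634307 on the plus strand. In Ucp1 a TGACG begins 137 bases and a TATAAA 30 bases before the start. Cox8b has a TATAAA beginning 39 bases before the start and a GGGCGG on the other strand. Cidea has 2 overlapping GGGCGG matches and Otop1 has 1. The capitals of Ppargc1a are TGACG matches on both strands that overlap. Over the 9 member windows TATAAA was found in 3 (12.9% of all 33465 promoter windows of the same length), TGACG in 2 (18.2%), AGGTCA in 1 (14.1%), CCAAT in 1 (34% of all) and GGGCGG in 4 (30.5%). None of the 5 motifs was in all 4 of the windows of Ucp1, Cox8b, Cidea and Otop1. A match describes letters in this window and nothing about a bound factor.

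All 10 genes were well above background on 16 of 16 arrays, except Dio2, whose probe was so on 15 (7 HFT and 8 HF, HFT 27 being the exception). Adipocyte markers were detected in every fat pad, with 9 of 9 genes that had a named probe well above background on 16 of 16 arrays. Adipoq (adiponectin) ran from 6.31 to 7.23 and Fabp4 (the fatty acid binding protein of adipocytes) from 6.23 to 7.38. Lep (leptin) ran from -2.57 to -1.02, below the 75th percentile on every array. Plin1, also on the adipocyte list, had no named probe. The summed level of that list ran from 390 to 698 times the 75th percentile in HFT and from 485 to 712 times in HF. The arrays had a 75th percentile of signal between 753 and 1366, 68.3% to 73.4% of probes were well above background and no spot was saturated. The number of arrays limits the precision. Every slide held 2 HFT arrays, at positions 3 and 4, and 2 HF arrays, at positions 1 and 2, so position and group cannot be told apart.

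Some fat pads had high levels of genes of other tissues. HFT 22, HFT 24 and HF 35 were high for a urothelium list, with a list median more than 3 log2 units over the median of the arrays. The uroplakin gene Upk3a had a level of 2.95 in HFT 22, 4.69 in HFT 24 and 4.69 in HF 35. Of that list 6 of 9 genes had a named probe, and the summed level ran from 0.754 to 74.6 in HFT and from 0.50 to 68.5 in HF. HFT 23, HFT 28 and HF 8 were high for Lcn5, a lipocalin of the epididymal epithelium, with levels of 3.42, 4.12 and 4.12. Of the epididymal list 15 of 18 genes had a named probe, its summed level ran from 1.01 to 21.8 in HFT and from 1.02 to 22.2 in HF, and Lcn9, Cst8, Cst11, Cst12 and Rnase9 stayed within background on all 16 arrays. The correlations of the members are given over 16 arrays and in the 10 arrays high for neither of these tissues. The summed level over the 16 arrays had an r with Ucp1 of 0.59 for the urothelium list (rho 0.47) and of -0.51 for the epididymal list (rho -0.39). The 4 kept genes of the urothelium list had a median r of 0.63, from 0.52 to 0.68, and in the 10 arrays that median was 0.016. HFT 36 and HF 10, which are among the 10, lay 3.33 and 3.77 log2 units over the median of the arrays for a liver list. Of that list 12 of 12 genes had a named probe, Cps1 stayed within background on all 16 arrays, and the summed level ran from 3.23 to 35.3 in HFT and from 3.26 to 69.5 in HF, with an r with Ucp1 of -0.16. Without those 2 as well, in 8 arrays, r with Ucp1 was 0.99 for Cox8b, 0.84 for Cidea and 0.66 for Otop1.

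Ucp1, the uncoupling protein that defines thermogenic fat, varied more between animals than almost any other gene. Its level in HFT was lowest at -0.80, had a median of 2.23 and was highest at 5.18. In HF it was lowest at 0.09, had a median of 2.27 and was highest at 6.75. The groups overlapped over nearly their whole range, and the extremes were HFT 26 at the bottom and HF 35 at the top, 187-fold apart. The standard deviation over the 16 animals was 2.0 log2 units, and 277 of the 21808 probes (1.27%) had a larger one. The 10 spots of the Ucp1 probe on an array had a standard deviation of 0.047 to 0.080 log2 units, so the spread between animals was far larger than that between spots. The largest step between neighbours was 1.57, from HFT 22 at 5.18 to HF 35 at 6.75. Other wide steps ran from HFT 36 at 3.82 to HFT 22 at 5.18 and from HF 10 at 1.55 to HFT 27 at 2.92. The latter had 8 arrays below it. The medians of HFT and HF lie inside that step, and whether the animals form 2 sets was not tested. Ucp1 was 5.18 in HFT 22, 3.06 in HFT 24 and 6.75 in HF 35, the arrays high for urothelium. It was 0.42 in HFT 23, 0.33 in HFT 28 and 0.09 in HF 8, the arrays high for Lcn5. The part of these tissues in the spread of Ucp1 was not tested. In the other 10 arrays Ucp1 still ran from -0.80 to 3.82, with a standard deviation of 1.45.

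**Figure D1:**
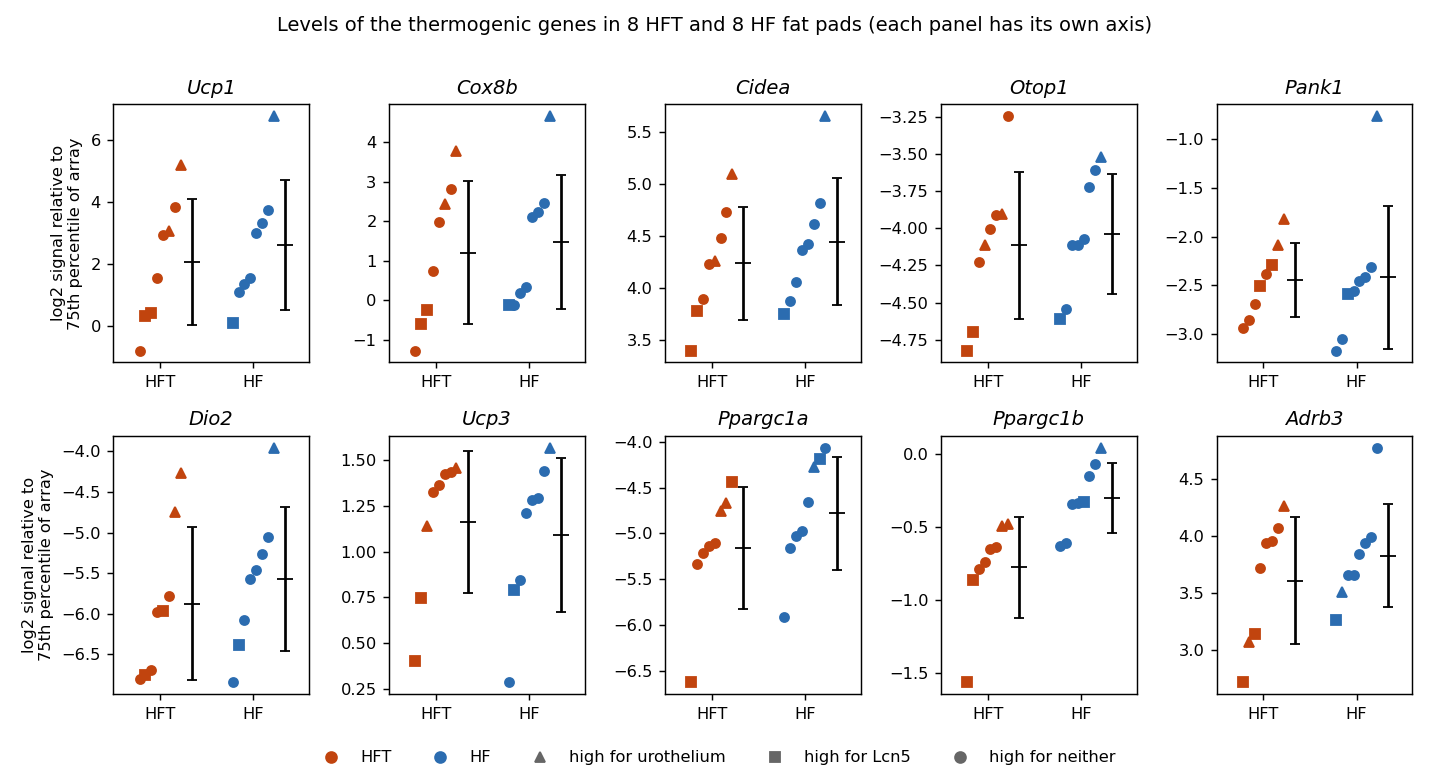
Levels of the 10 genes in each animal, as log2 signal relative to the 75th percentile of the array (y axis, a separate scale per panel), for 8 HFT and 8 HF animals. Points are animals, triangles are arrays high for urothelium, squares arrays high for Lcn5, and the black bar is the mean with its SD (n = 8). The HFT and HF points overlap in all 10 panels, and Ucp1 and Cox8b span 7.55 and 5.92 log2 units.

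Cox8b, a heart and muscle form of a cytochrome c oxidase subunit that is also a mark of brown fat, followed Ucp1 almost point for point. In HFT its level ran from -1.27 through a median of 1.37 to 3.78, and in HF from -0.11 through 1.22 to 4.66. HFT 26 was again the lowest animal and HF 35 the highest, 60.7-fold apart. Its standard deviation was 1.70, exceeded by 1.94% of the probes. Over the 16 animals its Pearson r with Ucp1 was 0.99 (Spearman rho 0.98), higher than that of any other gene measured. A step of 1 log2 unit in Ucp1 went with 0.84 in Cox8b. The relation held at r = 0.98 without the 2 arrays farthest from the median of Ucp1 (HFT 26 and HF 35) and at 0.99 in the 10 arrays high for neither tissue.

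Cidea, a lipid droplet protein that is highly expressed in brown fat, moved with Ucp1 over a much narrower range. In HFT its level ran from 3.4 through a median of 4.25 to 5.10, and in HF from 3.75 through 4.40 to 5.65. HFT 28 was lowest and HF 35 highest, 4.77-fold apart. Its r with Ucp1 was 0.93 (rho 0.91), 0.91 without the 2 farthest arrays and 0.85 in the 10 arrays, and it rose by 0.26 log2 units for each unit of Ucp1. Its second probe had an r of 0.95 with the first.

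Otop1, a proton channel found in brown fat of mice, was measured at a low signal but above background everywhere. Its level ran from -4.82 through a median of -4.06 to -3.25 in HFT and from -4.61 through -4.09 to -3.52 in HF. HFT 36, which was high for the liver list, was highest, and the 3 lowest animals were HFT 23, HFT 28 and HF 8, the arrays high for Lcn5. Its r with Ucp1 was 0.76 (rho 0.86), 0.79 without the 2 farthest arrays and 0.72 in the 10 arrays.

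**Figure D2:**
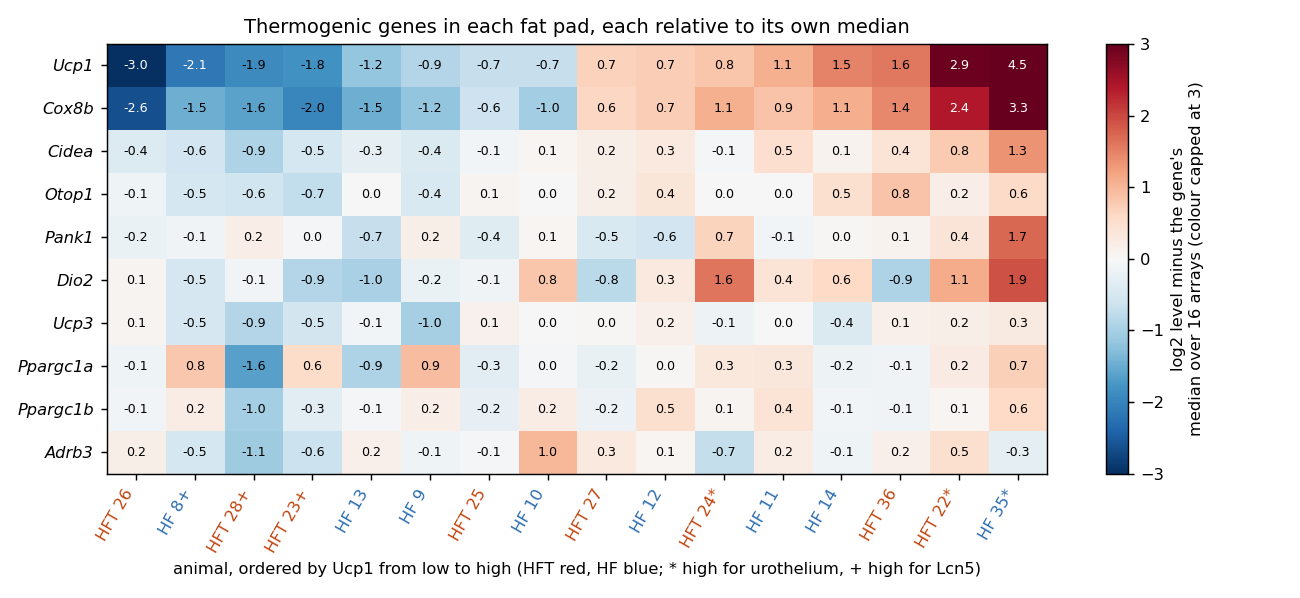
Each row is a gene and each column an animal, ordered by Ucp1 from low to high, with HFT names in red and HF names in blue. Colours and printed values are the log2 level minus the gene's own median over the 16 arrays. Cox8b follows the Ucp1 row over its whole range, Cidea and Otop1 follow it over a smaller one, and the rows from Pank1 down do not rise steadily.

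Dio2, the deiodinase, had its highest levels in the 3 arrays high for urothelium. Its level ran from -6.80 through a median of -5.97 to -4.27 in HFT and from -6.84 through -5.51 to -3.95 in HF. The values in the urothelium-high arrays were -4.75 in HFT 22, -4.27 in HFT 24 and -3.95 in HF 35, and no other array exceeded -5.05. Its r with Ucp1 was 0.59 (rho 0.52) over 16 animals and -0.00053 over the 10 arrays.

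Pank1, a pantothenate kinase that starts the synthesis of coenzyme A, had the same 3 arrays at the top. Its level ran from -2.94 through a median of -2.44 to -1.82 in HFT and from -3.17 through -2.51 to -0.77 in HF. HF 35 stood far above the other HF animals, whose highest was -2.31. The values of the urothelium-high arrays were -2.09 in HFT 22, -1.82 in HFT 24 and -0.77 in HF 35. Its r with Ucp1 was 0.60 (rho 0.44), 0.25 without the 2 farthest arrays and 0.18 in the 10 arrays. Pank1 and Dio2 had an r of 0.73 with each other, and 0.36 in the 10 arrays. The part of urothelial tissue in the levels of Dio2 and Pank1 was not tested.

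Ucp3, a relative of UCP1 found mainly in muscle and brown fat, had the narrowest range of the 10 members, 2.43-fold. Its standard deviation was 0.39, exceeded by 24.3% of the probes. Its level ran from 0.40 through a median of 1.35 to 1.46 in HFT and from 0.29 through 1.25 to 1.57 in HF. The lowest 3 animals were HFT 28 at 0.40, HFT 23 at 0.74 and HF 9 at 0.29. Its r with Ucp1 was 0.51 (rho 0.59) and 0.060 in the 10 arrays. With Cidea its r was 0.73, with Otop1 0.72 and with Adrb3 0.58. In the 10 arrays those values were 0.48, 0.48 and 0.36.

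**Figure D3:**
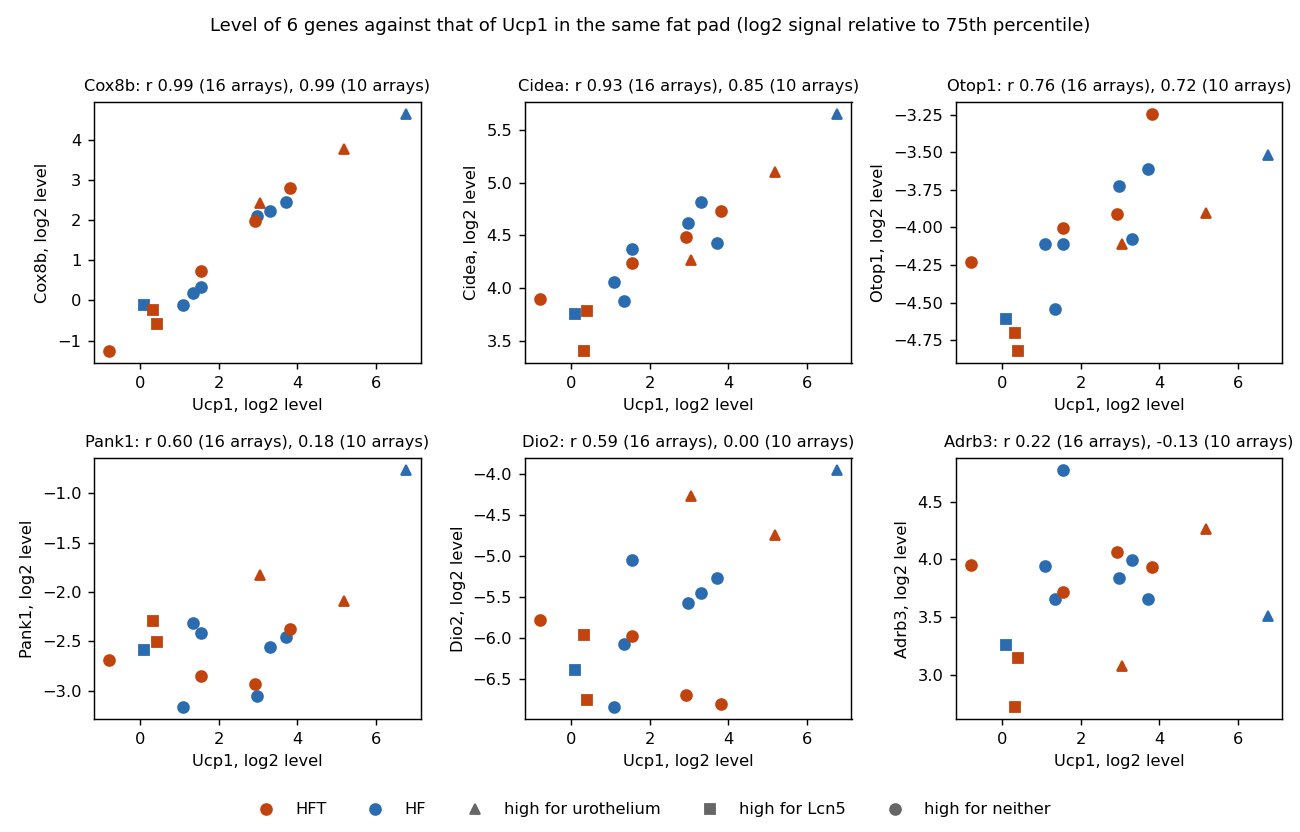
Level of 6 genes (y axes) against the level of Ucp1 (x axes) in the same animal, both as log2 signal relative to the 75th percentile, with HFT in red and HF in blue, triangles for arrays high for urothelium and squares for arrays high for Lcn5. Cox8b lies close to a line (r 0.99), Cidea and Otop1 rise with more scatter (0.93 and 0.76), and for Pank1 and Dio2 the 3 triangles are the highest points.

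Both coactivators had correlations with Ucp1 under 0.5. Ppargc1b ran from -1.56 through a median of -0.70 to -0.48 in HFT and from -0.63 through -0.33 to 0.04 in HF, and its r with Ucp1 was 0.48 (rho 0.37, and 0.18 in the 10 arrays). Ppargc1a ran from -6.62 through a median of -5.12 to -4.44 in HFT and from -5.91 through -4.81 to -4.07 in HF, and its r with Ucp1 was 0.27 (rho 0.16, and 0.11 in the 10 arrays), or 0.052 without 1 spot on HFT 28. The lowest Ppargc1a value, that of HFT 28, rested on 2 spots of 1 probe that read -8.85 and -4.39, whereas on every other array its spots lay within 0.50 of each other. On HFT 28, 102 of 11797 probes with 2 spots had spots over 3 log2 units apart, against 0 to 9 on the other arrays. The r between Ppargc1a and Ppargc1b was 0.72 as measured, 0.46 without HFT 28 and 0.13 without that low spot. Both spots of Ppargc1b on HFT 28 were low.

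Adrb3, the receptor at the head of the pathway, had an r with Ucp1 of 0.22 (rho 0.23) over 16 animals. Its level ran from 2.72 through a median of 3.83 to 4.27 in HFT and from 3.26 through 3.75 to 4.78 in HF. HF 10, which was high for the liver list, was highest, while HF 35, the animal with the most Ucp1, had 3.51. That r was 0.47 without the 2 farthest arrays and -0.13 in the 10 arrays, so its sign rests on which animals are counted. Pank1 and Adrb3 had the lowest r of the 45 member pairs, at -0.25.

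The 45 pairs had a median r of 0.46, with 10 pairs at 0.7 or more and 2 below 0. Among Ucp1, Cox8b, Cidea and Otop1 all 6 pairs were at 0.76 or more. These correlations describe 16 animals, the genes of a pair share an array and its scaling, and they carry no p-value, since the members were chosen with their co-variation in view. With the means of slide and group removed, r with Ucp1 was 0.98 for Cox8b, 0.90 for Cidea and 0.68 for Otop1. Within HFT alone it was 0.99, 0.90 and 0.69, and within HF alone 0.98, 0.95 and 0.84. Of the 11590 other named genes with a kept probe, 1.35% had an r with Ucp1 of 0.7 or more (157 genes) and 0.414% one of -0.7 or less (48 genes). Of the 9 other members 3 were at 0.7 or more, a count that the choice of members helps to fix.

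Outside the members, the genes whose levels were most like that of Ucp1 over the 16 animals were Colq at an r of 0.96 (the collagen-like tail of acetylcholinesterase, well above background on 12 arrays), Cpt1b at 0.94 (which lets fatty acids into mitochondria), Lrpprc at 0.91 (a mitochondrial RNA binding protein) and Acadm at 0.91 (an acyl-CoA dehydrogenase of fatty acid oxidation). They were followed by Acadl at 0.90 (another such dehydrogenase), Acot13 at 0.90 (a thioesterase), Fabp3 at 0.88 (the heart fatty acid binding protein), Letmd1 at 0.88, Perm1 at 0.88 (a muscle regulator linked to PGC-1 and ERR) and Chchd10 at 0.87 (a mitochondrial protein). In the 10 arrays the r of these genes ran from 0.67 for Letmd1 to 0.95 for Colq. The lowest were Igsf8 at -0.82, Calca at -0.82 (the calcitonin gene-related peptide), Tmem42 at -0.81 and Cyp2j3 at -0.79, and in the 10 arrays these ran from -0.83 for Tmem42 to -0.51 for Calca.

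Of a list of effectors of heat production and fatty acid burning, 20 of 24 genes with a named probe were kept. Their median r with Ucp1 was 0.51, against 0.032 over all genes, and 10 of the 20 were at 0.7 or more. Besides Cpt1b, Acadm, Fabp3 and Letmd1 these were Plin5 (a lipid droplet coat protein at mitochondria, 0.84), Ppara (0.81), Gk (glycerol kinase, 0.80), Pdk4 (0.77), Slc25a20 (0.75) and Etfdh (0.71). The lowest of the 20 were Slc6a8 at -0.43 and Gatm at -0.35, which were at -0.075 and -0.25 in the 10 arrays. In the 10 arrays 5 of the 20 were at 0.7 or more, against 1.09% of all genes. The median of the list there was 0.49, against -0.033 over all genes. The list was chosen with earlier results of these arrays known, which can help to fix these counts and medians. Elovl3, an elongase that is strongly expressed in brown fat, stayed within background on all 16 arrays.

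Markers of brown and beige cell identity had correlations with Ucp1 on both sides of 0. Of 14 listed genes 12 had a named probe, Prdm16 and Tbx15 being without one, and 8 were kept. The median r of these 8 was -0.23, with none at 0.7 or more. The highest were Kcnk3 (a potassium channel, 0.51) and Ebf2 (a transcription factor of brown preadipocytes, 0.38), which were at -0.14 and 0.12 in the 10 arrays, where the median was -0.17. Zic1, a marker of classical brown fat, stayed within background on all 16 arrays, and Lhx8 and Tmem26 were well above background on 2 arrays each. The summed level of the list ran from 4.50 to 8.40 in HFT and from 6.34 to 16.5 in HF. That sum is of linear signal, so its brightest genes weigh most. Cited1 had an SD of 1.69 in HF and 0.72 in HFT, and a highest level of 3.31. The 8 kept genes had a median HFT minus HF of -0.040, against -0.010 over all genes.

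Genes of beta-adrenergic signalling and of sympathetic nerves had correlations with Ucp1 between -0.68 and 0.70. Of the beta-adrenergic list 17 of 18 genes were kept, with a median r of 0.13, from -0.68 for Arrb2 (beta-arrestin 2) to 0.70 for Gnas (the stimulatory G protein). Of the sympathetic nerve list 9 of 11 were kept, with a median of 0.26 and a highest r of 0.62 for Prph (a neuronal intermediate filament), while Th, the enzyme of catecholamine synthesis, was at 0.14. Of the partners of the coactivators 12 of 14 were kept, with a median of 0.34, the highest being Perm1 (0.88), Ppara (0.81) and Tfam (a mitochondrial transcription factor, 0.72), and the lowest Nrip1 (a corepressor of Ucp1 in mice, -0.63). In the 10 arrays the median of the partners was -0.015, with Perm1 at 0.87, Ppara at 0.68, Tfam at -0.0048 and Nrip1 at -0.59. The beta-adrenergic median was -0.17 there, with Gnas at 0.46 and Arrb2 at -0.70, and the sympathetic median -0.037, with Prph at 0.27. The thyroid hormone list had a median of 0.051 over 6 genes, and -0.021 in the 10 arrays.

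Paralogs of the members were set beside them. The r with Ucp1 was 0.99 for Cox8b and 0.48 for Cox8a, the form of the oxidase subunit found in most tissues, and it was 0.93 for Cidea and 0.39 for Cidec. Ucp2 was at -0.29. In the 10 arrays the values were 0.99 for Cox8b, 0.33 for Cox8a, 0.85 for Cidea, 0.57 for Cidec and 0.021 for Ucp2. Pank1 was at 0.60, Pank2 at 0.69, Pank3 at -0.073 and Pank4 at 0.71, and in the 10 arrays these were 0.18, 0.34, -0.26 and 0.83. These are values side by side, and their differences were not tested. The skeletal muscle list, whose tissue also expresses Ucp3 and Cpt1b, had 9 of 12 genes kept with a median r of -0.090, from -0.33 for Atp2a1 to 0.67 for Mb (myoglobin, well above background on 16 of 16 arrays, and 0.24 in the 10 arrays). Tnni2 was at 0.45, and Myh1 stayed within background on all 16 arrays. Its summed level ran from 1.09 to 12.1 in HFT and from 1.25 to 34.8 in HF, and had an r of 0.31 (rho 0.17) with Ucp1. The summed adipocyte list had an r of -0.051 with Ucp1 and the summed macrophage list -0.58 (rho -0.65). The 8 macrophage genes had a median r of -0.21, from -0.62 for Lyz2 to 0.0070 for Adgre1. In the 10 arrays their median was -0.16, and Lyz2 was at -0.23.

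**Figure D4:**
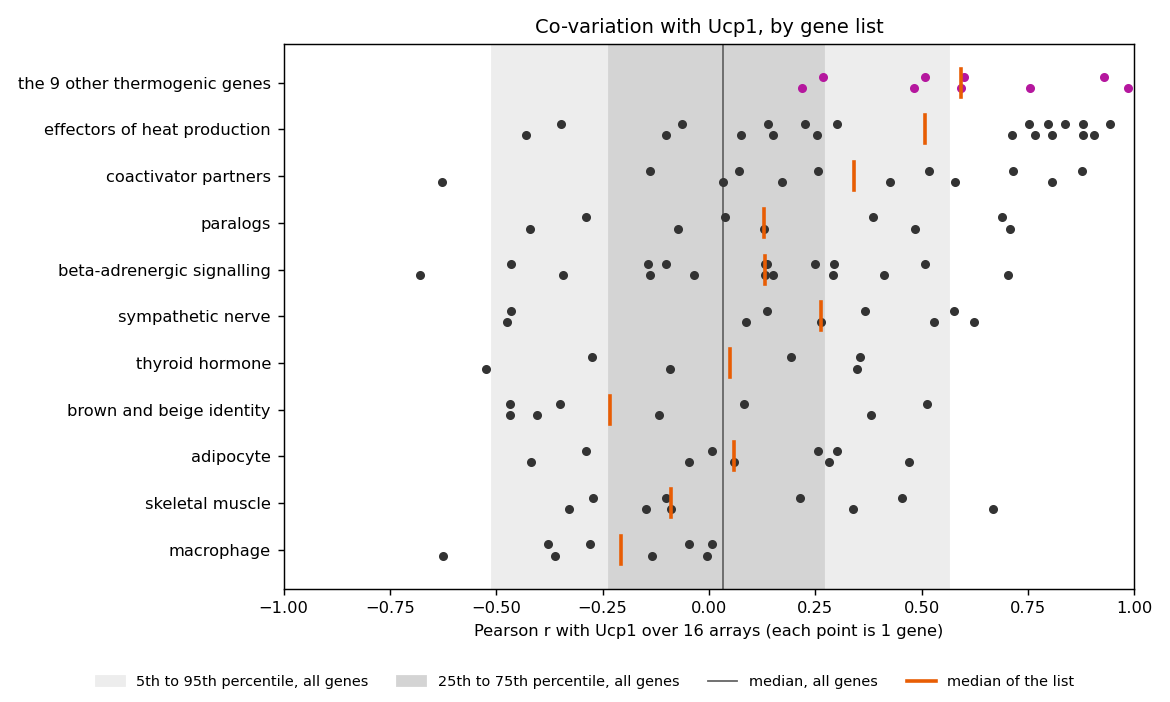
Pearson r with Ucp1 over the 16 arrays (x axis) for every kept gene of 11 lists (rows), with 1 point per gene and an orange bar at the median of the list. Grey bands show the middle of all 11590 genes (25th to 75th and 5th to 95th percentile) and the line their median of 0.032. Over the 16 arrays the effectors of heat production have a median of 0.51 and 10 of 20 points at 0.7 or more, whereas the brown and beige identity list has a median of -0.23. The lists were chosen with earlier results of these arrays known.

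The study's comparison asks whether the extract given to the dam altered gene expression in the pups' fat. Of the 10 members 0 passed limma's adjusted threshold of 0.05, as did 0% of the 21808 probes. At an unadjusted p under 0.05, 1 member was lower in HFT and 0 were higher, against 1.23% of all probes lower and 1.13% higher. The mean was lower in HFT for 9 members and higher for 1, where 56.2% of all probes had a lower mean, and the median difference was -0.24 over the members and -0.016 over all probes. The members are not independent of each other, so the count of 9 is not 9 separate observations. No member had groups that did not overlap, and neither did any other probe (0%).

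Ppargc1b was the member at an unadjusted p under 0.05. It averaged -0.78 ± 0.34 in HFT and -0.30 ± 0.24 in HF (SD, n = 8 each). The difference was -0.47 with a standard error of 0.14 and a 95% interval of -0.78 to -0.17, or 0.72-fold. In limma the unadjusted p was 0.00472 and the adjusted p 0.999994. Each of the 8 HFT values was under the mean of HF, and on the 4 slides the difference was -0.34, -0.39, -0.76 and -0.40. The groups overlapped, since 2 of the HFT animals, HFT 22 at -0.49 and HFT 24 at -0.48, were above HF 13 at -0.61 and HF 14 at -0.63. Without the 3 arrays high for Lcn5 the difference was -0.33, without HFT 28 it was -0.36, and in the 10 arrays it was -0.35. All 12 kept genes of the coactivator partners had a lower mean in HFT, as did 56.2% of all probes. Genes of a list can move together, so these are not 12 separate observations. Their median difference was -0.090, and 0 passed the adjusted threshold. The closest was Ppard at -0.32 (SE 0.12, limma unadjusted p 0.0155, adjusted p 0.999994).

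Ucp1 averaged 2.06 ± 2.02 in HFT and 2.60 ± 2.08 in HF, a difference of -0.54 (SE 0.96). Its 95% interval ran from -2.58 to 1.49, that is from 0.168-fold to 2.81-fold, so that a 2-fold change of Ucp1 in either direction lay inside it. Within the slides the difference was 2.08, -0.12, -2.26 and -1.87. Without HF 35 it was 0.049, in the 10 arrays -0.46, and without the 2 arrays high for the liver list -0.95. Cox8b differed by -0.26 (95% interval -1.99 to 1.48), Dio2 by -0.30 (-1.21 to 0.61) and Cidea by -0.21 (-0.79 to 0.37). The second Cidea probe gave -0.23. The adjusted p of each of these in limma was 0.999994.

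Ppargc1a differed by -0.38 (95% interval -1.02 to 0.26), and by -0.10 (-0.61 to 0.41) without its low spot on HFT 28. Adrb3 differed by -0.22 (-0.73 to 0.29), Otop1 by -0.078 (-0.53 to 0.38) and Pank1 by -0.033 (-0.62 to 0.55). Ucp3 was the member with a higher mean in HFT, by 0.073 (-0.34 to 0.48). The adjusted p of each in limma was also 0.999994. In the 10 arrays the differences of the members ran from -0.60 for Dio2 to 0.33 for Ucp3, that of Otop1 was 0.18, and 0 passed the adjusted threshold. Among the effectors of heat production 7 kept genes had a higher mean in HFT and 13 a lower one, with a median difference of -0.041. Gatm, which makes the precursor of creatine, had the smallest unadjusted p in that list, at 5.31e-05 in limma for a difference of 0.90 (SE 0.17), with an adjusted p of 0.999994. Rgs2, a brake on G protein signalling, differed by -0.59 (SE 0.22, limma unadjusted p 0.015, adjusted p 0.999994) in the beta-adrenergic list. The 8 macrophage markers all had a higher mean in HFT, where 56.2% of all probes had a lower one. Their median difference was 0.33, with summed levels of 11.9 to 22.8 in HFT and 8.61 to 17.8 in HF. Of these 8, 4 (Cd68, Trem2, Fcgr1a and Lyz2) were higher in HFT at an unadjusted p under 0.05 in limma, against 1.13% of all probes. Of the 8, 0 passed the adjusted threshold. The 10 kept genes of the liver list also had a higher mean in HFT, with a median difference of 0.82 and 0 genes at an unadjusted p under 0.05. Genes of the macrophage or liver list can move together, so these counts are not counts of separate observations. The part of these lists in the members' differences was not tested.

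**Figure D5:**
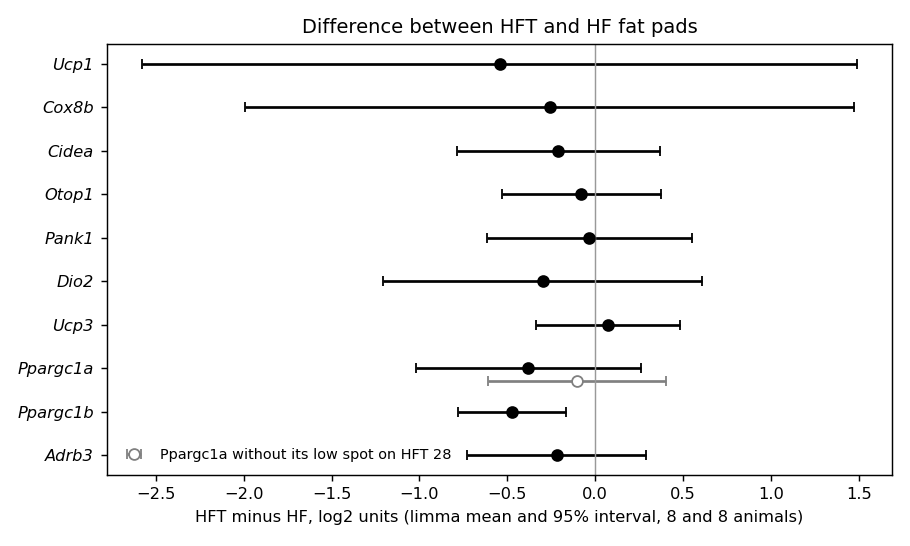
Difference HFT minus HF in log2 units (x axis) for each gene (rows), with its 95% interval from limma over 8 HFT and 8 HF animals. The grey open point is Ppargc1a without its low spot on HFT 28. The interval of Ppargc1b (-0.78 to -0.17) does not reach 0 before adjustment, the intervals of the other 9 genes do, and that of Ucp1 is the widest.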

How the data were processed

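Spot intensities come from Agilent Feature Extraction 10.7.3.1, which subtracted background and detrended each array without scaling arrays to each other, per the file headers. How the authors normalized their deposited log2 table is not stated in the labels or headers. Its column medians were 7.33 to 7.36 and each of its 16 columns matched its own array best, and it served only as an alternative.

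The processed intensities were put on the log2 scale, relative to the 75th percentile of the 58717 non-control spots on the same array. Spots with outlier flags were left out, which dropped 23 probes, and replicate spots were averaged. A probe was kept if well above background, on 50% or more of its spots, in 4 or more of the 8 animals in HFT or in HF. No 2 arrays were alike beyond an r of 0.993. HFT was compared with HF with limma 3.58.1 in R 4.3.3 (lmFit and eBayes) and Benjamini-Hochberg adjustment over the kept probes. The fit was also run on simulated data with independent noise for each probe, which says nothing of probes that move together. Probes were named by RefSeq accession (table of build GRCr8), and of several probes of a gene the one of highest mean signal was used.

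The members, gene lists and tests were chosen with earlier results of these data known. The genes named are the members, the 10 highest and 4 lowest others by r with Ucp1, and of each list up to 4 by r and up to 3 by p. In the effector list all 10 genes at an r of 0.7 or more and the lowest, Slc6a8 and Gatm, are named. Some listed genes without a named probe or within background on all 16 arrays are named too. The use of Lcn5 and of the liver list to leave out arrays, the low Ppargc1a spot and Th, Pank3, Zic1, Lhx8, Tmem26, Elovl3, Cox8a, Cidec and Ucp2 were chosen after their values were seen. Alternatives covered background correction, normalization, filter, slide, flags, single animals and arrays with other tissue.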

Additional observations from a re-analysis of the deposited data

Results flagged for a closer look

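Of the 20 groups of 8 animals examined (10 genes in HFT and in HF), 3 had an animal set apart from the rest of its group by a gap beyond Dixon's 95% critical value, and chance alone flags about 1 in 20 groups. Ppargc1a in HFT 28 was the lowest of HFT at -6.62, with the nearest HFT animal at -5.34, and 1 of the 2 spots behind that value read -8.85 and the other -4.39. Ppargc1b in HFT 28 was the lowest of HFT at -1.56, with the nearest at -0.87, and HFT 28 was also 1 of the 3 arrays high for Lcn5. Pank1 in HF 35 was the highest of HF at -0.77, with the nearest at -2.31, and HF 35 was also high for urothelium and the animal with the highest Ucp1. What set these animals apart was not tested.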

How the results depend on the processing

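No paired analysis was possible because HFT and HF share no animal number; slide was fitted as a block instead and left 0 members past the threshold. With normexp and quantile normalization, quantile normalization alone, the authors' log2 table, other filters, flagged spots kept, slide as a block, each animal left out in turn and 4 sets of arrays left out, 0 members passed in any fit, and the lowest adjusted p of a member was 0.886. Over all probes 0 passed in each of these fits except that without the arrays high for Lcn5, where 1 passed: Acot5, named after its value was seen, at -4.38 (limma adjusted p 0.0131, 6 HFT and 7 HF arrays, above background on 2 and 7 of them), against -2.77 (adjusted p 0.999994) over 16 arrays. The cause was not tested. The planned epididymal rule selected no array, so leaving out either tissue by the planned rule equalled leaving out urothelium, and Lcn5 was used after the data were seen. The sign of a difference turned for Otop1 (0.056 without the Lcn5-high arrays, 0.18 without those high for urothelium or Lcn5), Cox8b (0.057 without the Lcn5-high arrays) and Pank1 (0.039 without the urothelium-high arrays). With 1 animal left out, the difference ran from -0.99 to 0.049 for Ucp1 (above 0 without HF 35), -0.63 to 0.20 for Cox8b, -0.20 to 0.023 for Otop1, -0.14 to 0.20 for Pank1 and -0.041 to 0.18 for Ucp3. It stayed below 0 for Cidea (-0.33 to -0.037), Dio2 (-0.53 to -0.068), Ppargc1a (-0.54 to -0.17), Ppargc1b (-0.52 to -0.36) and Adrb3 (-0.31 to -0.084). The median r of the other 9 members with Ucp1 was 0.59, and over the settings it ran from 0.18 in the 10 arrays high for neither tissue to 0.74 within HF. The r turned sign for Adrb3 within HF (-0.14) and in those 10 arrays (-0.13), for Adrb3 (-0.093) and Ucp3 (-0.028) in the 8 of them that were not high for the liver list, a choice made after the data were seen, for Pank1 without the urothelium-high arrays (-0.042) and for Dio2 in the 10 arrays (-0.00053), and that of Dio2 was 0.86 within HF. Over all settings r stayed between 0.98 and 0.99 for Cox8b, 0.84 and 0.95 for Cidea, and 0.66 and 0.86 for Otop1.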
